A study of Homo sapiens with 36 samples.

Results

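The miRNAs that co-precipitated with the N359H variant of Argonaute 2 (AGO2) were compared with those that co-precipitated with wild-type AGO2 (WT). The comparison took every column of the 2 groups, 3 anti-HA immunoprecipitation (IP) libraries of N359H and 3 of WT, which are 6 of the 36 libraries of the series, and all 135 mature miRNA strands that the table names. HEK293T cells, a human embryonic kidney cell line, had been transfected with Flag/HA-tagged AGO2, either WT or with the variants F182del, N359H, G604R or D619N, or with the Flag/HA-empty vector, and small RNA was sequenced from the lysate (input) and from the IP. The AGO2 plasmids were transfected beside a GFP plasmid into cells that keep their own untagged AGO2, and the cells were lysed the next day. The genotype of each library was taken from its label and was not checked here, since only miRNAs were tabulated. Nothing in the labels says whether replicates were separate cultures, so the errors given measure the spread between these libraries.

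AGO2 is the Argonaute protein that holds a miRNA and leads it to complementary messenger RNAs. A miRNA hairpin yields a duplex of which the guide strand is kept and the passenger strand, marked here with an asterisk, is mostly discarded. Positions 2 to 8 of the guide form the seed, which pairs first with a target, and miRNAs of one family usually share it. The residue changed in N359H lies in helix-7 of the L2 linker, a mobile element near the path of the guide. miRNA names follow MirGeneDB, in which a number is a family, P1, P2 and so on are its paralogues, and 5p or 3p is the arm.

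Families that carried most of the reads in both pools, and single miRNAs described further on, have the following RefSeq sequences (GRCh38.p14), written 5′ to 3′ with the seed in capitals. The first set shows the seed shared by the abundant Mir-92 family, with a 5p arm of the Mir-10 family below it.
hsa-miR-92a-3p: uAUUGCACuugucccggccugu
hsa-miR-92b-3p: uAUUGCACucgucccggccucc
hsa-miR-25-3p: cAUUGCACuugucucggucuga
hsa-miR-10a-5p: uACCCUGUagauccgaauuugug
RefSeq places hsa-miR-92a-3p at 2 loci, chr13:91351361-91351382 on the plus strand within the MIR17HG transcript and chrX:134169544-134169565 on the minus strand. hsa-miR-25-3p lies on the minus strand at chr7:100093571-100093592 in an intron of MCM7. hsa-miR-10a-5p lies on the minus strand at chr17:48579904-48579926, in an intron of HOXB3 and in an annotated exon and UTR of HOXB4. The second set holds miRNAs or families whose N359H libraries lay apart from WT or that were among the smallest p-values, both arms of the pair whose strand ratio was called, and miR-375, which was chosen by name. The Mir-30 group is shown because its paralogues share the seed.
hsa-miR-191-5p: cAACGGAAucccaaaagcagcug
hsa-miR-221-3p: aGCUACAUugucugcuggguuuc
hsa-miR-30a-5p: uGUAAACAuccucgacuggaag
hsa-miR-30c-5p: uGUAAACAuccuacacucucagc
hsa-miR-30e-5p: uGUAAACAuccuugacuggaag
hsa-miR-577: uAGAUAAAauauugguaccug
hsa-miR-21-5p: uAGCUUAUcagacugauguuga
hsa-miR-340-5p: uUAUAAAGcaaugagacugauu
hsa-miR-340-3p: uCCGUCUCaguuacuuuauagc
hsa-miR-671-3p: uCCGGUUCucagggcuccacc
hsa-miR-375-3p: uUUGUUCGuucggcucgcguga
hsa-miR-191-5p lies on the minus strand at chr3:49020672-49020694 in an intron of DALRD3, hsa-miR-577 on the plus strand at chr4:114656774-114656794 in an intron of UGT8, and both arms of miR-340 on the minus strand of chromosome 5, in an intron of RNF130, at chr5:180015361-180015382 for the 5p arm and chr5:180015319-180015340 for the 3p arm. hsa-miR-21-5p lies on the plus strand at chr17:59841273-59841294 in an intron of VMP1. hsa-miR-671-3p overlaps an exon of a CHPF2 transcript on the plus strand at chr7:151238488-151238508, and hsa-miR-375-3p on the minus strand at chr2:219001648-219001669 overlaps no other gene in GENCODE v29 basic. For the families Mir-92, Mir-10, Mir-221 and Mir-30 the sources used here do not pair a paralogue name with a RefSeq name, so these sequences stand for the family and not for one paralogue. The sequences of hsa-miR-186-5p and hsa-miR-21-3p are named only.

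The 6 libraries differed in depth. The WT IP libraries held between 102967 and 279899 reads in all, of which 30793, 6429 and 6105 were mature miRNA reads in replicates 1, 2 and 3. The N359H IP libraries held between 24252 and 99138 reads, of which 6610, 6284 and 1150 were mature miRNA reads. Read numbers were inferred from the deposited RPM (reads scaled to a fixed library total), whose values move in steps of 1 read. N359H replicate 3 was thus the shallowest of the 6, and its limit of detection, set at 3 reads, was 0.261% of mature miRNA reads, against 0.00974% in WT replicate 1 and between 0.0454% and 0.0491% in the other 4. In the empty-vector IP, the background of the precipitation, between 174 and 202 mature reads were found per library. The Wilson intervals of shares and the limits of detection given below cover counting error only. The intervals of log2 changes come from the fits and rest on the spread between libraries.

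Mature miRNAs made up a similar part of both pools. They were 11.0%, 6.24% and 2.23% of all reads in WT replicates 1 to 3 (95% Wilson intervals 10.9% to 11.1%, 6.10% to 6.39% and 2.17% to 2.29%) and 8.46%, 6.34% and 4.74% in N359H (8.27% to 8.66%, 6.19% to 6.49% and 4.48% to 5.02%). All 3 N359H values lay inside the range of the WT values. The means were 6.49% ± 4.39 in WT and 6.52% ± 1.87 in N359H (SD, n = 3), with p = 1 in a two-sided exact permutation test, for which 0.1 is the smallest p that 3 against 3 libraries allow. Divided by the share in the input of the same number, the values were 19.3, 26.4 and 9.65 in WT and 5.95, 21.9 and 18.8 in N359H, and the groups overlapped again (exact permutation p = 0.6). The value of 5.95 goes with a high input share. Mature miRNAs were 1.42% of the 148205 reads in N359H input replicate 1, against 0.289% and 0.253% in N359H input replicates 2 and 3. Because the WT libraries spread from 2.23% to 11.0%, a moderate difference in yield was not detectable, and less AGO2 recovered cannot be told apart here from less miRNA per AGO2.

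The same miRNAs led both repertoires, in nearly the same order. Of the 10 miRNAs with the largest mean share in WT, 10 were also the leading 10 in N359H, and of the leading 20, 20 were shared. The top 6 of every one of the 6 libraries were the same 6 strands, namely Mir-10-P1c-v1_5p, Mir-92-P1a_3p, Mir-92-P1c_3p, Mir-10-P1b-v1_5p, Mir-186_5p and Mir-92-P1d_3p. Together these 6 took 63.1% of mature reads in WT and 65.6% in N359H as means of 3 libraries. The leading 20 took 82.4% in WT and 85.5% in N359H. The lysate also held the 6 leading strands at high shares, so a shared list of leading strands is not particular to these proteins. In WT input replicate 2, Mir-10-P1c-v1_5p had 22.9%, Mir-10-P1b-v1_5p 12.8%, Mir-92-P1a_3p 9.03%, Mir-92-P1c_3p 8.49%, Mir-186_5p 4.81% and Mir-92-P1d_3p 2.97%. In WT input replicate 3, Mir-22-P1b_3p (3.46%) lay above Mir-92-P1d_3p (2.40%).

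**Figure D1:**
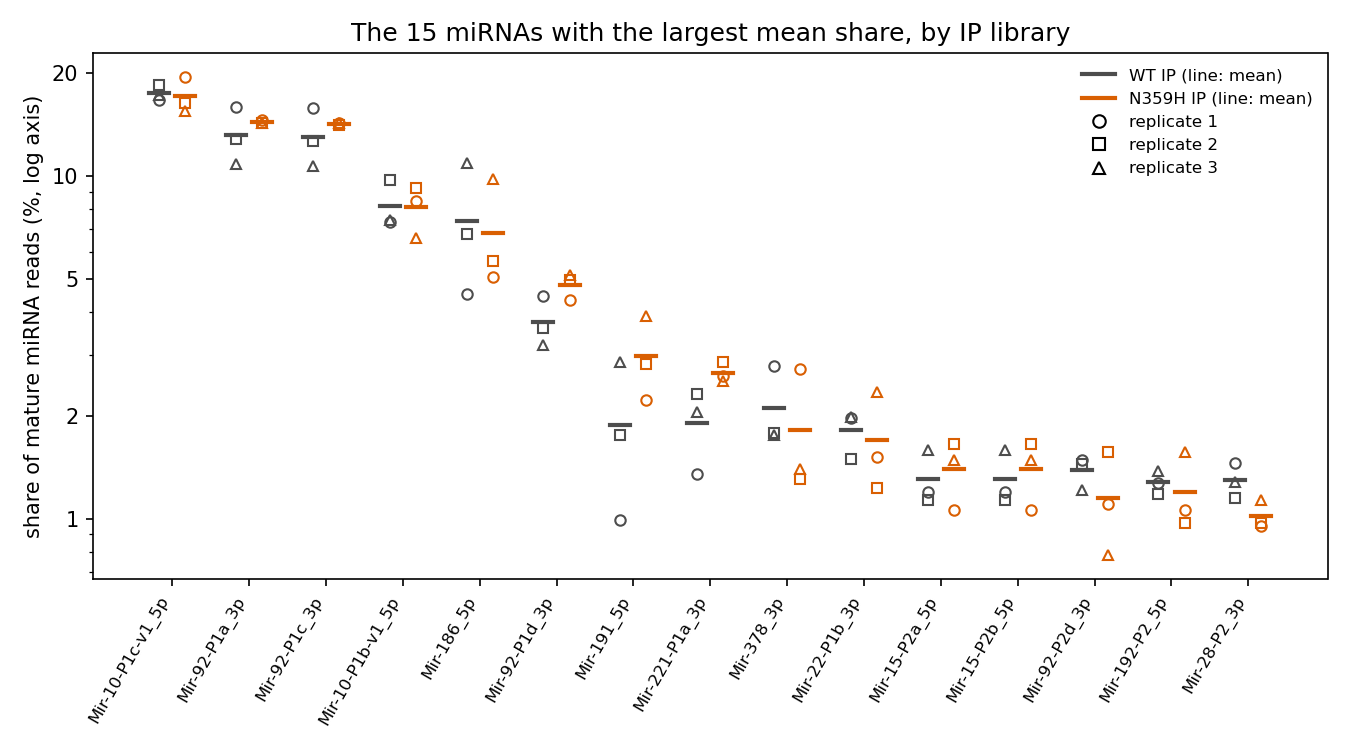
Share of mature miRNA reads (percent, log axis) of the 15 miRNAs with the largest mean share in the 3 WT IP libraries (grey) and the 3 N359H IP libraries (orange). Symbols are replicates and lines are group means, and the mean shares of Mir-10-P1c-v1_5p, 17.5% in WT and 17.2% in N359H, are the highest of all.

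Mir-10-P1c-v1_5p, of the Mir-10 family, was first in each library. It took 16.7%, 18.5% and 17.3% of mature reads in the WT libraries and 19.5%, 16.4% and 15.6% in the N359H libraries. The groups overlapped, and the change was 0.04 on the log2 scale (SE 0.24, 95% interval -0.48 to 0.56). Its relative Mir-10-P1b-v1_5p had 7.34%, 9.78% and 7.44% in WT and 8.49%, 9.26% and 6.61% in N359H, with a change of 0.06 (SE 0.24).

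Mir-92-P1a_3p, of a family that includes a member of the oncogenic miR-17-92 cluster, took 15.9%, 12.8% and 10.9% in WT and 14.6%, 14.3% and 14.3% in N359H. The N359H values lay close together and inside the WT range (change 0.22, SE 0.25). Mir-92-P1c_3p had nearly the same counts, with 4864 reads beside 4908 in WT replicate 1 and 165 beside 165 in N359H replicate 3, so the split of reads between these paralogues is uncertain and they do not count as separate observations. Mir-92-P1d_3p had 4.46%, 3.59% and 3.21% in WT and 4.34%, 4.96% and 5.13% in N359H. Its mean rose from 3.75% to 4.81%, but WT replicate 1 lay above N359H replicate 1 and the interval of the change, -0.04 to 0.92, included 0.

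Mir-186_5p, one of the leading strands outside those families, varied mainly within the groups. It had 4.52%, 6.77% and 10.96% in WT and 5.07%, 5.65% and 9.83% in N359H, so replicate 3 was the highest of both groups. The change was -0.01 (SE 0.31, 95% interval -0.68 to 0.66).

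Mir-191_5p, a miRNA that many human cells express strongly, had 0.990%, 1.76% and 2.87% in WT and 2.22%, 2.83% and 3.91% in N359H. The groups overlapped, since WT replicate 3 lay above the 2 lower N359H libraries. The change was 0.84 (SE 0.32, 95% interval 0.15 to 1.54), with an adjusted p of 0.74 in limma over all 123 miRNAs tested. Without WT replicate 3 it was 1.22 with an adjusted p of 0.016 in limma, so this library decides the call.

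Mir-221-P1a_3p, of the family known for its action on the cell cycle inhibitor p27, was higher in all N359H libraries. It had 1.35%, 2.32% and 2.05% in WT and 2.62%, 2.86% and 2.52% in N359H, and the lowest N359H value lay just above the highest WT value. The change was 0.59 (SE 0.23, 95% interval 0.09 to 1.10), with an adjusted p of 0.74 in limma. The other members of the leading 15 overlapped between the groups, apart from Mir-28-P2_3p, which had 1.45%, 1.15% and 1.28% in WT and 0.953%, 0.971% and 1.13% in N359H (change -0.27, SE 0.22).

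No miRNA passed the threshold of an adjusted p under 0.05 and an absolute log2 change over 1. At the same thresholds the study reports a few differentially bound miRNAs for N359H, from DESeq, a count model that was not run here. Of 123 miRNAs tested with limma on log2(scaled RPM + 1), 0 were called (0%), and 6 (4.88%) had an unadjusted p under 0.05. On this scale the change of a rare miRNA depends on the pseudocount of 1. The count was also 0 with pseudocounts of 10 and 50, with the other scalings, without a filter and with a strict one. The exceptions were the joint fit of all 5 AGO2 groups, with 1 call (Mir-340_3p*), and the fits without WT replicate 2 or without WT replicate 3, with 3 calls each.

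How closely the pools could be compared depended on abundance. The 17 miRNAs with a mean share of at least 1% made up 79.5% of WT and 83.0% of N359H reads, and all 17 had an absolute change under 1 on the log2 scale. Their median change was 0.06, with a median absolute change of 0.22 and a range from -0.55 to 0.84. For 13 of the 17 the whole 95% interval lay within 1 of 0, so a change of 2-fold in either direction lay outside it. The intervals of Mir-191_5p, Mir-221-P1a_3p, Mir-30-P1a_5p and Mir-148-P1_3p reached further, the last from -1.22 to 0.11.

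Of the 46 miRNAs with shares between 0.1% and 1%, 40 had an absolute change under 1 and 12 an interval within 1 of 0. Their median change was -0.09. Below 0.1% lay 60 miRNAs, which together made up 3.60% of WT and 2.19% of N359H reads. For none of the 60 did the interval stay within 1 of 0, and the median standard error was 1.90, so in this class neither a difference nor its absence could be shown.

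The median change over all 123 miRNAs was -0.57 with the main scaling, -0.64 with scaling to mature reads and -0.43 with RPM as deposited, and the shift lay in the rare miRNAs. The median was -1.56 in the class below 0.1%, in which 54 were lower and 6 higher, and 56 of the 60 had no read in at least 1 N359H library. Without N359H replicate 3, the library of 1150 mature reads, the median of that class was -0.14 with 35 lower and 25 higher, and the median over all 123 was -0.0078.

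**Figure D2:**
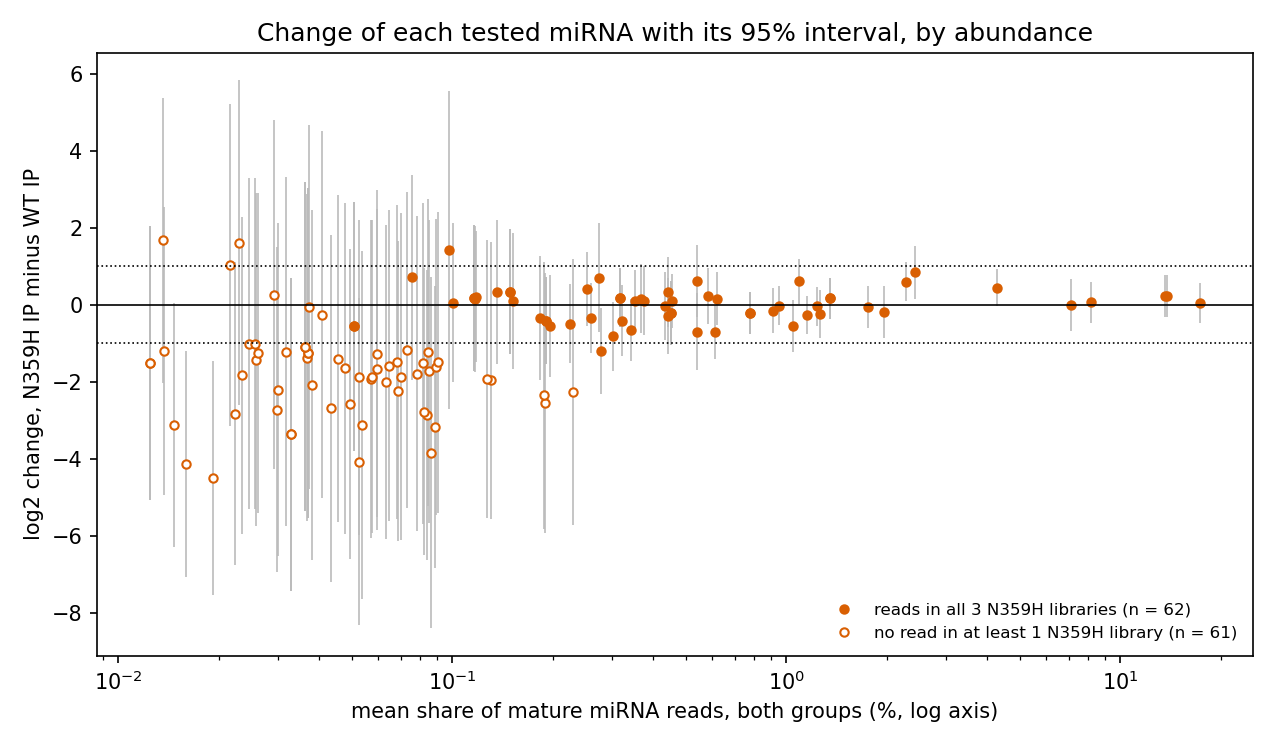
Change of each of the 123 tested miRNAs (log2, N359H IP minus WT IP) with its 95% interval, against the mean share of mature reads in both groups (percent, log axis). Filled points had reads in all 3 N359H libraries and open points had none in at least 1, dotted lines mark a log2 change of 1 either way, and the 17 miRNAs of at least 1% all lie between those lines.

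Nearly all miRNAs detected with N359H were also detected with WT. Detection at any read depends on depth, and WT replicate 1 held 30793 mature reads against 6610, 6284 and 1150 in the N359H libraries. The lists therefore cannot tell nested from different repertoires. Of 131 miRNAs with a read in any WT library and 125 in any N359H library, 124 were common, which is 94.7% of the WT list and 99.2% of the N359H list. Read in all 3 libraries were 105 for WT and 62 for N359H, and 61 were in all 6, which is 58.1% of the first list and 98.4% of the second. Those 61 held 95.5% of WT and 97.3% of N359H reads. Of the 44 found in all WT libraries but missing in some N359H library, 33 were missing in N359H replicate 3 alone.

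The number of miRNAs listed was 128, 111 and 118 in WT and 117, 109 and 63 in N359H. The means, 119 ± 8.54 (SD, n = 3) and 96.3 ± 29.1 (SD, n = 3), differed by less than the spread within N359H (two-sided exact permutation p = 0.2). Without N359H replicate 3 the difference was -6 miRNAs in place of -22.7.

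The miRNAs seen on one side only were all rare. The 7 found in WT alone made up 0.141% of its reads and reached at most 12 reads in a library, and the 1 found in N359H alone, Mir-361-v1_3p*, had 2 reads in 1 library. For each of the 7, the mean in WT was below the 64.1 RPM that 3 reads were worth in N359H, so no fold can be given. They were chosen after their values were seen. Mir-21_3p* had 11, 3 and 2 reads in WT and 0, 0 and 0 in N359H, Mir-340_3p* had 5, 3 and 2 against 0, 0 and 0, and Mir-30-P2d_3p* had 12, 0 and 3 against 0, 0 and 0. The fitted changes of these 3 passenger strands (-4.49, -4.14 and -3.13) rest on the pseudocount and are no measure of size. The other 4 were Mir-17-P1c_5p, Mir-193-P1b_3p*, Mir-374-P2_5p and Mir-576_5p.

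In 12 of the 123 miRNAs (9.76%) the libraries of the groups did not overlap, 10 lower (8.13%) and 2 higher (1.63%) with N359H. The 2 higher were Mir-221-P1a_3p and Mir-30-P1a_5p, both abundant. Mir-30-P1a_5p had 0.627%, 1.09% and 0.983% in WT and 1.12%, 1.59% and 1.13% in N359H, with a change of 0.60 (SE 0.27). Another member of the family, Mir-30-P2a_5p, went the other way, with 0.279%, 0.482% and 0.426% in WT and 0.197%, 0.255% and 0.174% in N359H (change -0.83, SE 0.41). Most of the lower ones had few reads. Only Mir-28-P2_3p among the 10 lower had a share of at least 1%, and the others, except Mir-30-P2a_5p, had no read in N359H replicate 3.

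Mir-21_5p, an abundant miRNA in many tumours but scarce in these cells, had 24, 6 and 6 reads in WT and 3, 0 and 0 in N359H. Its share was between 0.0779% and 0.0983% in the WT libraries and 0.0454% in N359H replicate 1, and the WT shares lay above the limit of detection of N359H replicate 2, 0.0477%, and below that of N359H replicate 3, 0.261% (change -4.08, SE 1.95, adjusted p 0.74 in limma). Mir-188-P2_5p had 47, 8 and 10 reads in WT and 4, 2 and 0 in N359H (change -3.18, SE 1.68). Mir-671_3p had 58, 6 and 7 against 5, 2 and 0 (change -2.87, SE 1.74), and Let-7-P1b_5p, Mir-31_5p and Mir-17-P1d_5p were also lower in all N359H libraries, each with 0 reads in N359H replicate 3.

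Mir-375_3p, known from the pancreatic islet, was low in 5 of the 6 libraries. It had 41, 0 and 3 reads in WT and 3, 0 and 0 in N359H, and the groups overlapped (change -2.09, SE 2.09). Nearly all of its WT reads lay in replicate 1. Mir-375_3p, Mir-188-P2_5p, Mir-671_3p and Mir-320-P1_3p were fixed by name with earlier results of these same libraries known. Of them, the study's text names miR-375-3p as less bound by N359H. Their lower values are therefore no independent observation. Mir-320-P1_3p, a miRNA whose hairpin does not need Drosha, had 138, 20 and 24 reads in WT and 10, 18 and 1 in N359H. Its shares were 0.448%, 0.311% and 0.393% against 0.151%, 0.286% and 0.0870%, all 3 N359H values the lower (change -1.20, SE 0.52, adjusted p 0.74 in limma). On the scaled RPM of the fit the groups overlapped. Mir-577_5p had 0.481%, 0.762% and 1.11% in WT and 0.363%, 0.509% and 0.435% in N359H (change -0.70, SE 0.32), and the lowest WT value lay below the highest N359H value.

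**Figure D3:**
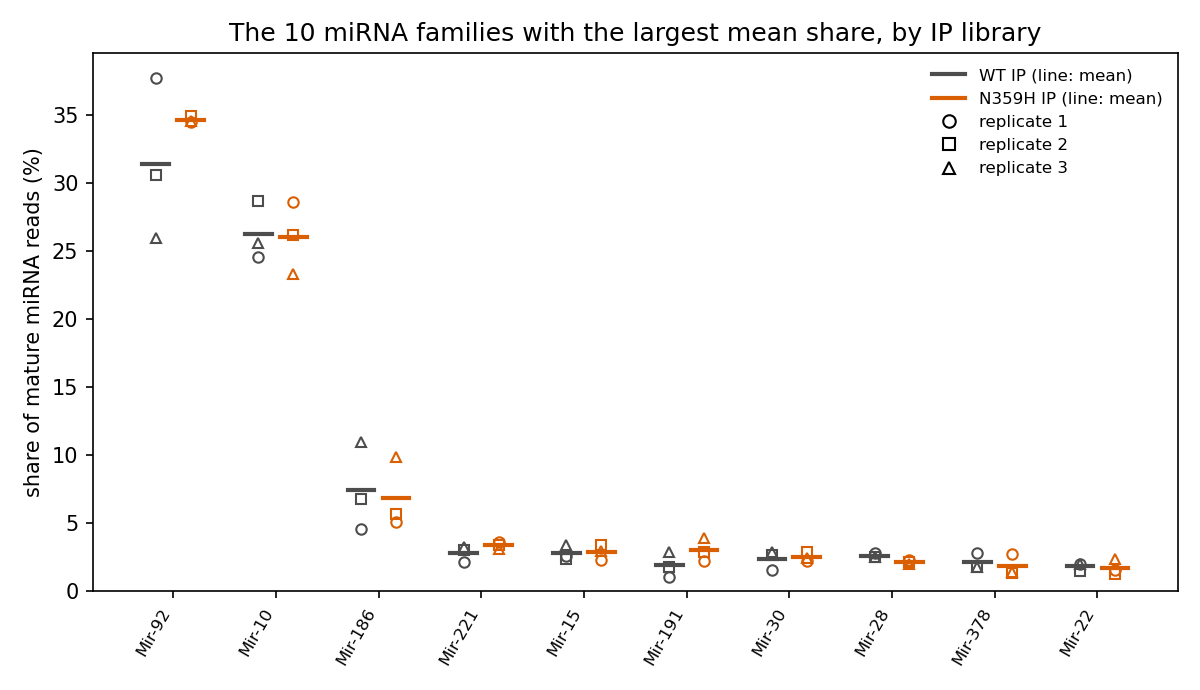
Share of mature miRNA reads (percent) of the 10 miRNA families with the largest mean share in the 3 WT IP libraries (grey) and the 3 N359H IP libraries (orange), with replicates as symbols and group means as lines. Mir-92 and Mir-10 lead in both groups, at 31.4% and 26.3% in WT and 34.7% and 26.0% in N359H.

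Summed by family, the leading groups were the same in both repertoires. Of 53 families tested, 0 were called (0%) in limma and 2 (3.77%) had an unadjusted p under 0.05, Mir-191 and Mir-21. Mir-92 took 37.7%, 30.6% and 26.0% in WT and 34.5%, 35.0% and 34.6% in N359H (31.4% ± 5.93 and 34.7% ± 0.25, SD, n = 3). The 3 N359H libraries were far closer to one another than the WT libraries, whose range enclosed them. Mir-10 took 24.6%, 28.7% and 25.6% in WT and 28.6%, 26.2% and 23.3% in N359H. Mir-186 came next, with means of 7.41% and 6.85%.

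The groups of the families did not overlap in 7 of the 53 (13.2%). Mir-221, with 2.15%, 3.02% and 3.26% in WT and 3.63%, 3.39% and 3.04% in N359H, was higher on the scaled RPM of the fit (change 0.41, SE 0.22), while its shares overlapped. Mir-130 was lower, with 0.666%, 0.918% and 1.05% in WT and 0.575%, 0.573% and 0.522% in N359H (change -0.50, SE 0.30). Mir-320 was lower, with 0.598%, 0.404% and 0.491% against 0.182%, 0.350% and 0.261% (change -0.81, SE 0.43). Mir-21 had 0.114%, 0.140% and 0.131% in WT and 0.0454%, 0% and 0% in N359H. The other 3, Mir-188, Mir-671 and Mir-31, were lower at shares under 0.3%.

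Within each of the 20 families listed for this comparison, 0 members were called. The 10 listed members of Let-7, the family that restrains proliferation and marks differentiated cells, had a median change of -0.22 against -0.57 over all 123, and took 1.75% ± 0.46 of reads in WT and 1.43% ± 0.59 in N359H. The members of Mir-10 had a median of 0.06, those of Mir-92 0.22, those of Mir-103 0.18 and those of Mir-221 0.40. Mir-26, Mir-28, Mir-101, Mir-130, Mir-148, Mir-320, Mir-423 and Mir-17 had medians from -1.27 to -0.16, Mir-15 and Mir-30 had -1.23 and -0.83, and Mir-181 had -1.52. The lowest medians, from -4.29 to -2.46, were those of Mir-21, Mir-19, Mir-362 and Mir-188, whose summed shares were below 0.3% in both groups.

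Passenger strands were few in both pools. The 25 listed took 2.60%, 2.26% and 2.98% of mature reads in WT and 2.30%, 1.85% and 1.48% in N359H (2.61% ± 0.36 and 1.87% ± 0.41, SD, n = 3). The highest N359H value lay between the WT values. Of the 20 that passed the filter 0 were called, and 2 did not overlap, both lower, beside 12 of all 123 miRNAs (9.76%), 10 of them lower (8.13%). Their median change was -1.60, beside -0.57 over all 123 and -1.56 over the 60 miRNAs below 0.1%. Passenger strands were not compared with other strands of like abundance.

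The choice of strand was then compared as the ratio of passenger to guide within a hairpin. Of 21 pairs tested in limma, 1 (4.76%) was called, Mir-340, lower with N359H. Its guide Mir-340_5p had 62, 18 and 20 reads in WT and 15, 9 and 2 in N359H, and its passenger Mir-340_3p* 5, 3 and 2 against 0, 0 and 0. The log2 ratio was lower by 7.62 (SE 0.65, adjusted p 0.0015 in limma), a value set by the pseudocount. With a pseudocount of 100 CPM, or where the weaker strand needed a mean of 5 reads, 0 pairs were called. In reads, the passenger was 10 of 110 in WT, or 9.09% (95% Wilson interval 5.01% to 15.9%), and 0 of 26 in N359H (95% Wilson interval 0% to 12.9%). The limit of 3 reads would be 11.5% of those 26 reads. At this depth a difference in strand choice was thus not detectable.

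Of the other pairs, none passed the test. For Mir-28-P2, of which both strands were abundant, the log2 ratio of 5p to 3p was -0.45, -0.19 and -0.53 in WT and -0.02, -0.05 and -0.38 in N359H (difference 0.24, SE 0.59). For Mir-423, of which both arms are known to be loaded, the ratio of 3p to 5p was -0.31, -0.58 and 0 in WT and -0.70, -0.72 and -1 in N359H. All 3 N359H values were the lower, with a difference of -0.51 (SE 0.60) that did not pass the test (adjusted p 0.70 in limma).

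Likeness over the whole repertoire was measured as the overlap of 2 libraries, the sum over miRNAs of the smaller of their shares. Over the 9 pairs of an N359H and a WT library it averaged 87.1% (range 83.6% to 90.6%). Within WT it averaged 86.0% over 3 pairs (83.2% to 87.7%) and within N359H 88.2% (85.3% to 90.7%). The range across the genotypes overlapped both ranges within a genotype, and the mean shares of the groups overlapped by 93.2%. Pairs share libraries, so these are descriptions without a test. Over the 124 miRNAs left when identical sets counted once, the mean was 87.1%.

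The scatter of single miRNAs was also similar across and within the genotypes. Over the miRNAs of at least 1%, the SD of the log2 ratio of 2 libraries averaged 0.54 across the genotypes, 0.50 within WT and 0.51 within N359H. Counting error alone would give 0.22, 0.15 and 0.29, so replicates of one genotype differed by more than counting error. Between WT and G604R, F182del and D619N the SD averaged 0.48, 0.53 and 0.99. On this measure N359H was no closer to WT than G604R or F182del. The Pearson correlation of log2(RPM + 1) over the 135 miRNAs averaged 0.81 across the genotypes, 0.84 within WT and 0.76 within N359H. Between WT and G604R, F182del and D619N the correlation averaged 0.77, 0.74 and 0.69, all lower than with N359H. The correlation takes in strands with few or no reads and so depends on depth, which was not matched between variants. Both measures are across miRNAs, which are not independent replicates, and all libraries share the same cells and the same sequence biases.

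**Figure D4:**
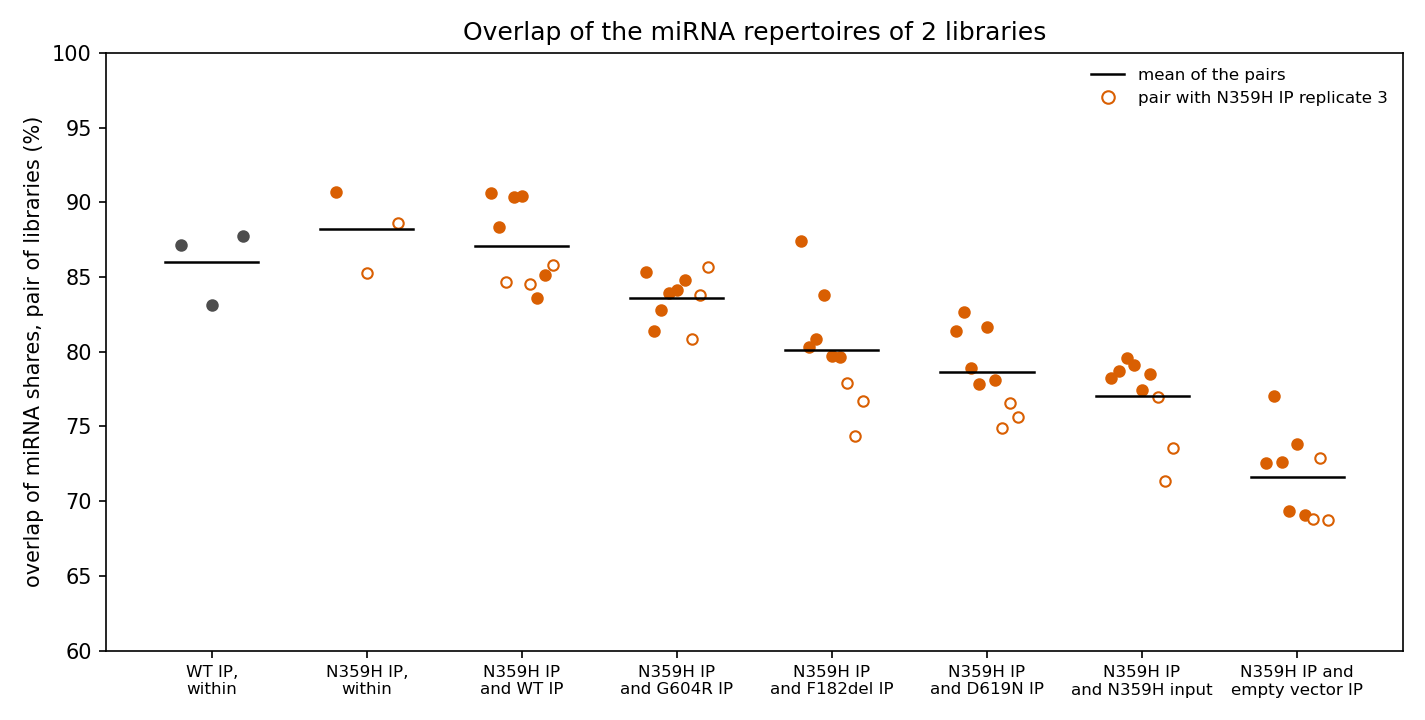
Overlap of miRNA shares (percent) for each pair of libraries within WT IP, within N359H IP, and between N359H IP and the named groups, with a line at the mean and open points for pairs with N359H replicate 3. The axis starts at 60%, and the mean falls from 87.1% with WT to 83.6% with G604R, 80.1% with F182del, 78.6% with D619N, 77.1% with the N359H input and 71.6% with the empty-vector IP.

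N359H overlapped more with WT than with any other variant. The mean over 9 pairs was 83.6% with G604R (80.8% to 85.7%), 80.1% with F182del (74.4% to 87.4%) and 78.6% with D619N (74.9% to 82.6%). The order of WT first and D619N last held for each N359H library, at 88.2%, 88.0% and 85.0% with WT and 81.0%, 79.2% and 75.7% with D619N. WT itself overlapped by 85.3%, 82.2% and 79.5% with G604R, F182del and D619N. With the N359H input the overlap was 77.1%, and with the empty-vector IP, which held few reads, it was 71.6%.

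In fits against other variants, where no WT library entered, N359H and the other variant differed in named miRNAs. Such a fit does not say which variant departed from WT, so WT shares are given beside. In limma against D619N, 8 of 111 miRNAs (7.21%) were called, 6 higher (5.41%) and 2 lower (1.8%) with N359H, and the libraries did not overlap in 42 (37.8%). Mir-221-P1a_3p had 2.62%, 2.86% and 2.52% with N359H and 0.363%, 0.490% and 0.348% with D619N, a change of 2.62 (SE 0.24, adjusted p 0.0015 in limma). Mir-191_5p had 2.22%, 2.83% and 3.91% against 0.609%, 1.05% and 0.646%, a change of 1.83 (SE 0.28). Mir-92-P1d_3p, with 4.34%, 4.96% and 5.13% against 1.22%, 1.36% and 2.44%, changed by 1.46 (SE 0.24). Mir-577_5p and Mir-30-P1a_5p were higher with N359H by 2.36 and 1.93. In WT, Mir-221-P1a_3p had 1.35%, 2.32% and 2.05% and Mir-92-P1d_3p 4.46%, 3.59% and 3.21%, all above the D619N values. Mir-577_5p, at 0.481%, 0.762% and 1.11%, and Mir-30-P1a_5p, at 0.627%, 1.09% and 0.983%, also lay above D619N in WT. Mir-191_5p, at 0.990%, 1.76% and 2.87% in WT, overlapped D619N.

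Mir-130-P3b_5p*, with 0.197%, 0.207% and 0.261% against 0%, 0% and 0%, passed the filter through N359H alone. On deposited RPM its N359H mean, 140 RPM, was 1.54 times the mean D619N limit of 3 reads. In D619N replicate 3 that limit was 180 RPM, above this mean, so no smallest fold can be given. Lower with N359H were Mir-92-P2d_3p, with 1.10%, 1.56% and 0.783% against 2.58%, 4.37% and 2.83%, and the passenger strand Mir-10-P1c-v1_3p*, with 0.0756%, 0.127% and 0.174% against 0.421%, 0.640% and 0.547%. In WT, Mir-130-P3b_5p* had 0.214%, 0.327% and 0.360%, Mir-92-P2d_3p 1.49%, 1.45% and 1.21%, and Mir-10-P1c-v1_3p* 0.123%, 0.0778% and 0.131%. For these strands the WT values lay on the N359H side of D619N. Without D619N replicate 1 there was 1 call in limma, and with RPM as deposited there were 0.

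In limma against F182del, 4 of 129 (3.1%) were called, all lower with N359H, and the libraries did not overlap in 35 (27.1%). Mir-423_5p had 0.590%, 0.446% and 0.348% with N359H and 1.63%, 2.14% and 0.892% with F182del, and Mir-423_3p 0.363%, 0.271% and 0.174% against 0.791%, 0.837% and 0.859%. The changes were -1.81 (SE 0.42) and -1.80 (SE 0.36), both with an adjusted p of 0.0496 in limma, just under the threshold. The passenger strand Mir-221-P1a_5p* fell by 2.02 on the log2 scale (SE 0.43). Mir-374-P2_3p* had 0.305%, 0.124% and 0.164% with F182del and 0%, 0% and 0% with N359H, so it passed the filter through F182del alone. Its F182del mean was 1.08 times the mean N359H limit of 3 reads on deposited RPM. The limit of N359H replicate 3, 0.261%, lay above F182del replicates 2 and 3, so no smallest fold can be given. In WT, Mir-423_5p had 0.416%, 0.420% and 0.508%, Mir-423_3p 0.334%, 0.280% and 0.508%, and Mir-374-P2_3p* 0%, 0% and 0%. These WT values lay below those of F182del, while Mir-221-P1a_5p*, at 0.585%, 0.389% and 1.05% in WT, overlapped F182del. Without N359H replicate 2 the count of calls was 0.

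In limma against G604R, 1 of 113 (0.885%) was called, Mir-221-P1a_5p* again, while 9 (7.96%) had an unadjusted p under 0.05 and 19 (16.8%) did not overlap. It had 0.711%, 0.255% and 0.261% with N359H and 2.32%, 1.26% and 1.48% with G604R, a change of -1.99 (SE 0.41, adjusted p 0.010 in limma). WT had 0.585%, 0.389% and 1.05% of this strand, all below G604R. Without N359H replicate 2 or without G604R replicate 1 there was no call, and without N359H replicate 3 there were 5, all higher with N359H. The counts against G604R and F182del rose to 31 and 25 with RPM as deposited, of which 31 and 20 were higher with N359H. Mature miRNAs were 2.25% of reads in the G604R IP, 3.27% in F182del, 6.52% in N359H and 9.25% in D619N, and the part of this difference in those counts was not tested.

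The lysates from which the pools came were compared in the same way. Between N359H and WT input, 0 of 106 miRNAs (0%) were called in limma 2 (1.89%) had an unadjusted p under 0.05, and the groups did not overlap in 8 (7.55%). The mean input shares overlapped by 92.2%. Mature reads ranged from 2746 to 9391 in the WT inputs and from 2110 to 12040 in the N359H inputs. Mir-191_5p had 1.70%, 1.63% and 3.13% in WT input and 2.51%, 1.76% and 2.19% in N359H input (change -0.08, SE 0.25), and Mir-221-P1a_3p changed by 0.05 (SE 0.30). Mir-320-P1_3p, with 9, 7 and 2 reads in WT input and 0, 4 and 0 in N359H input, was lower in the lysate as well (change -1.98, SE 0.78, adjusted p 0.83 in limma).

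Whether the N359H difference was another in the IP than in the input was tested as an interaction. Of 127 miRNAs 0 (0%) were called in limma and 4 (3.15%) had an unadjusted p under 0.05, each a strand with at most 24 reads in an IP library. They were Mir-340_3p*, Mir-21_3p*, Mir-21_5p and Mir-30-P2d_3p*. For Mir-191_5p the interaction was 0.92 (SE 0.45, 95% interval -0.05 to 1.89). For Mir-320-P1_3p it was 0.78 (SE 0.98), so the lower IP value was not shown to go beyond that of the input.

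**Figure D5:**
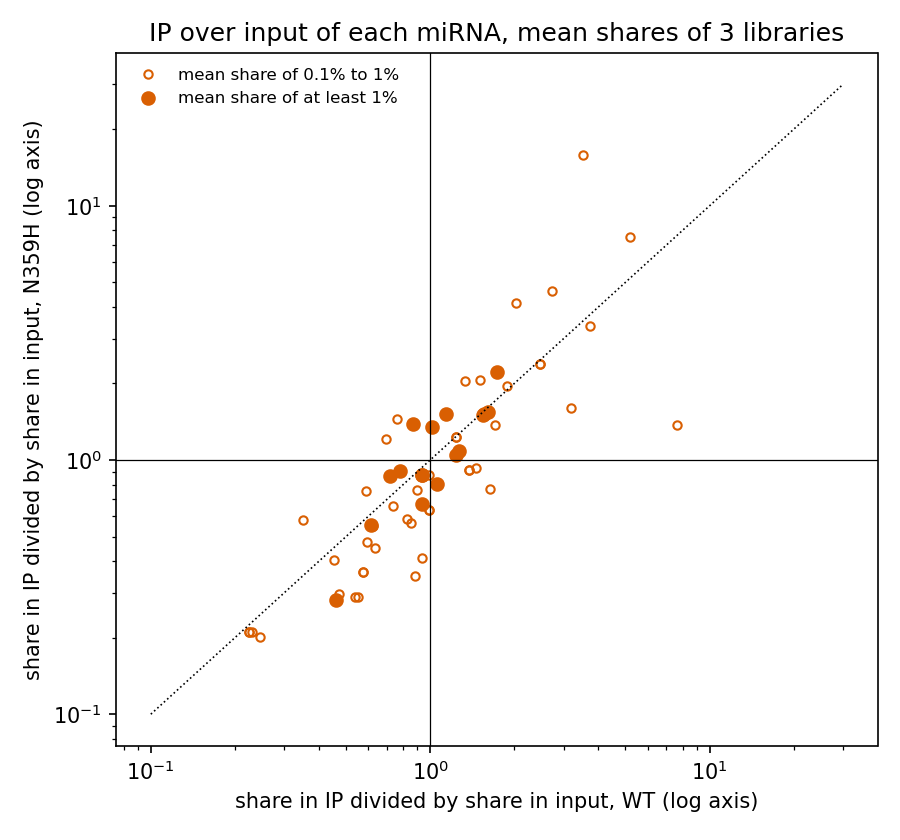
Mean share in the IP divided by mean share in the input, for WT (horizontal) and N359H (vertical), both log axes, for the 62 miRNAs with a mean IP share of at least 0.1% and reads in both inputs. The dotted line marks equal ratios, the solid lines mark 1, and 54 of the 62 miRNAs lie on the same side of 1 in both genotypes.

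Most miRNAs lay on the same side of their input share with N359H as with WT. Ratios of other variants or of the empty-vector IP were not set beside these, so a preference common to any IP is not told apart. Of 62 miRNAs with a mean share of at least 0.1%, 23 had a larger share in the IP than in the input for both proteins and 31 a smaller one, and 8 lay on different sides. The Pearson correlation of the log2 ratios was 0.85 across these miRNAs. Mir-92-P1a_3p was 1.54 times its input share with WT and 1.498 times with N359H, Mir-186_5p 1.56 and 1.52 times, and Mir-221-P1a_3p 1.73 and 2.22 times. Below their input share were Mir-22-P1b_3p, at 0.615 and 0.553 times, and Mir-10-P1c-v1_5p, at 0.780 and 0.908 times. Mir-191_5p was at 0.868 times with WT and 1.39 times with N359H, the only one of the leading 10 besides Mir-378_3p, at 1.06 and 0.803 times, to lie on different sides.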

How the data were processed

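HEK293T small RNA libraries had been sequenced as 36-base single reads. According to the study's methods, the authors quantified mature miRNAs with sRNAbench against MirGeneDB 2.1 after a Phred 20 filter, and the submitters' processing notes name GRCh38. The deposited values are RPM (reads scaled to a fixed library total), 1 table with 1 column per library. The authors' own comparisons were not used.

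Read numbers were inferred from the RPM step of each library and served only for depth, intervals and the limit of 3 reads. A miRNA was kept where 2 or more libraries of either group reached a scaled RPM of 1. Libraries were scaled by the median of ratios, and log2(scaled RPM + 1) was fitted with limma 3.58.1 in R 4.3.3, with Benjamini-Hochberg adjustment over all miRNAs tested in a comparison. A call needed an adjusted p under 0.05 and an absolute log2 change over 1. Strand ratios were fitted likewise on log2 passenger over guide. Single values were compared by two-sided exact permutation tests. The code was tested on simulated data. Named were the 15 miRNAs and 10 families with the largest mean share, all calls and the 10 smallest p-values. Added were 4 miRNAs fixed by name, of which the study's text names miR-375-3p for N359H. The groups, members and lists were chosen with earlier results of these data known.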

Additional observations from a re-analysis of the deposited data

How the results depend on the processing

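The count of 0 miRNAs called between N359H and WT held under the alternatives run except the joint fit of the 5 AGO2 groups, with 1 call, and leaving out 1 library, with 0 to 3. Leaving out 1 library gave 0 to 1 called families, 0 to 2 called interactions and 1 to 3 called strand pairs. A pseudocount of 100 CPM, or a mean of 5 reads in the weaker strand, gave 0 strand pairs. Against F182del the calls were 7 with a pseudocount of 10, 25 with RPM as deposited and 0 to 9 without 1 library. Against G604R they were 2, 31 and 0 to 5. Against D619N they were 0 with RPM as deposited and 1 to 13 without 1 library. The ratio of mature shares was 0.756 to 1.54 without 1 library and 0.843 when divided by the input. The correlation between N359H and WT was 0.88 over miRNAs of at least 100 RPM, a setting not run for the other variants. The causes were not tested.

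Small changes turned sign. Scaling to mature reads gave -0.033 for Mir-10-P1c-v1_5p, -0.013 for Mir-10-P1b-v1_5p, -0.014 for the Mir-10 family and -0.084 for the Mir-186 family. RPM as deposited gave 0.16 for Mir-186_5p, 0.10 for Mir-22-P1b_3p and its family, and 0.12 for Mir-192-P2_5p. The joint fit gave 0.045 for Mir-186_5p and 0.0082 for Mir-192-P2_5p, and counting identical miRNAs once gave 0.0064 for Mir-186_5p. Weighting libraries by their spread, chosen after seeing the data, gave 0.013 for Mir-92-P2d_3p and -0.12 for the Mir-186 family. Without 1 library the changes ran from -0.083 to 0.19 for Mir-10-P1c-v1_5p, -0.039 to 0.29 for Mir-10-P1b-v1_5p, -0.24 to 0.33 for Mir-186_5p, -0.56 to 0.11 for Mir-378_3p, -0.24 to 0.14 for Mir-22-P1b_3p, -0.49 to 0.092 for Mir-92-P2d_3p and -0.17 to 0.091 for Mir-192-P2_5p. For families they ran from -0.24 to 0.36 for Mir-186, -0.0073 to 0.42 for Mir-30, -0.21 to 0.031 for Mir-28, -0.51 to 0.13 for Mir-378 and -0.15 to 0.25 for Mir-22.

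Replicate numbers paired the libraries weakly or not at all (correlations of deviations 0.19, -0.046 and 0.088 between N359H and WT IP). Between the N359H and WT inputs they were 0.16, 0.061 and 0.16. Between IP and input they were 0.38, -0.027 and 0.032 in WT and 0.011, 0.049 and 0.051 in N359H. The main interaction fit did not pair an IP with its own input. With the replicate block, 0 miRNAs, 0 families, 0 input miRNAs, 0 interactions and 1 strand pair were called, and 5, 1 and 6 against F182del, G604R and D619N. The planned count models were not run, although 100% of the values above 0 were whole multiples of 1 read within 0.001 read, so only fits on log values are given. Depth, lowest in N359H replicate 3 with 1150 mature reads, limits all statements on miRNAs under 0.1%.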
